A study of Mus musculus with 6 samples.

Results

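The Reg (regenerating islet-derived) family was examined in small intestinal organoids treated with low-density lipoprotein (LDL). The 5 genes Reg1, Reg3a, Reg3b, Reg3g and Reg4 were taken by name from the 55416 genes of the deposited table, and each was found once. Organoids, which are epithelial structures grown from isolated crypts in a gel, came from the duodenum and jejunum of 3 WT mice of the C57BL/6 strain. The crypts of every mouse were divided between 50 μg/ml LDL and PBS as the control and cultured for 5 days, which gave 3 LDL-treated and 3 PBS-treated libraries. Libraries of the same replicate number carry the same animal identifier, so each mouse served as its own control. The age of the mice and the number of wells behind a library were not given in the sources used here. The identifier of mouse 3 has another prefix than those of the other mice, although the genotype label is WT for all.

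Reg proteins are small secreted proteins built around a C-type lectin fold. Reg3b and Reg3g are antibacterial lectins that epithelial cells release into the gut lumen, and Reg3g binds the peptidoglycan of Gram-positive bacteria. Reg1 was first known from the exocrine pancreas and regenerating islets and is also made by the small intestinal epithelium, whereas Reg4 marks enteroendocrine cells of the small intestine and secretory cells at the crypt base of the colon. In the intact gut, Reg3 genes respond to microbes and to the cytokine interleukin-22, which signals through its receptor Il22ra1 and the transcription factor Stat3.

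Reg1, Reg3a, Reg3b and Reg3g lie together on chromosome 6 of GRCm39, between 78347640 at the start of Reg3b and 78445859 at the end of Reg3g, in a row that also holds Reg2 and Reg3d. Reg4 lies apart, on chromosome 3 from 98129468 to 98144066. The bases just upstream of the RefSeq transcription start of each member are shown because the members of the chromosome 6 row are close relatives whose responses can be set beside their promoters. In GENCODE, the gene starts of Reg1 and Reg3b lie 3272 and 228 bases before the RefSeq starts. The stretches shown for these genes hold 30 and 24 bases of annotated exon, and that of Reg1 was shortened to limit them. Each stretch was located in GRCm39 by exact match and runs 5′ to 3′ on the strand of its gene, with capitals marking TATAAA, the core of a TATA box, and TTCNNNGAA, the core of a STAT site.
Reg1 (chr6:78402816-78402942, plus strand, 150 to 24 bases upstream): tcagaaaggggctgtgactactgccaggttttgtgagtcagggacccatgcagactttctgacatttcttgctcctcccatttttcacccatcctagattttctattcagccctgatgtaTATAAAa
Reg3g (chr6:78445858-78446007, minus strand, 150 to 1 bases upstream): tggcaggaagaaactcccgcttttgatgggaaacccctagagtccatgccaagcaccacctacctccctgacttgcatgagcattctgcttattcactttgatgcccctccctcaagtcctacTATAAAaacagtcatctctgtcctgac
Reg3b (chr6:78347718-78347867, plus strand, 150 to 1 bases upstream): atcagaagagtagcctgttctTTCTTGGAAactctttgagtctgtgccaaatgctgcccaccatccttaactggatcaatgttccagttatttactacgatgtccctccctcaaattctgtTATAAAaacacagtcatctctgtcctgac
Reg3a (chr6:78357542-78357691, plus strand, 150 to 1 bases upstream): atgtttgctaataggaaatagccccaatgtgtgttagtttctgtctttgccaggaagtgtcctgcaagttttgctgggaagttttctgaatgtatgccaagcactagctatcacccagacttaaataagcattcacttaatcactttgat
Reg4 (chr3:98129322-98129471, plus strand, 150 to 1 bases upstream): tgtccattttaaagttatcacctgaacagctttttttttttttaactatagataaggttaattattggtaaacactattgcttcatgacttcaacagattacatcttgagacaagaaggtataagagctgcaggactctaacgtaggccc
TATAAA was found 30 to 25 bases upstream of the start in Reg1, 29 to 24 bases in Reg3b and 27 to 22 bases in Reg3g. These letters were found on either strand in the 250 bases upstream of 12.4% of 32851 RefSeq promoters. TTCNNNGAA was found in Reg3b, 129 to 121 bases upstream, and in none of the other members, against 7.02% of all promoters. The consensus PPAR response element, a direct repeat of AGGTCA spaced by 1 base, was in no member and in 0.0335% of all promoters. A match describes these letters and not a bound factor.

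The coding sequences of the Reg3 members were alike. Reg3b shared 76.4% of 522 aligned bases with Reg3g and 76.5% of 515 with Reg3a, while Reg1 shared 63.7% to 66.8% with the other members. No window of 100 bases, about the length of a read, of any member's main transcript was found in a transcript of another gene.

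Normalized counts are reads per gene divided by 1 size factor per library, and the whole reads behind them could be recovered. The libraries held 22061545 to 31073360 reads on genes. Epithelial genes were high, with Epcam between 20049 and 24334 in every library, whereas the acinar genes of the pancreas, where Reg1 is abundant, were close to absent: the 6 genes of that list summed to 7.28 to 8.54 with LDL and 10.6 to 31.1 with PBS. The 5 stromal genes summed to 70.9 to 110 with LDL and 109 to 151 with PBS, most of it Vim, and the 5 immune genes to 107 to 143 and 102 to 192, most of it Lyz2, whose reads can be shared with its paralog Lyz1. The treatments were compared by limma on log2(normalized count + 1) over the 18459 genes that reached a mean of 10, among them all 5 members. Calls required more than 1.5-fold and an adjusted p-value under 0.05. Libraries of a treatment came from separate mice.

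All 5 Reg genes had a higher mean with LDL. Their median log2 fold change was 0.67, beside -0.02 over all genes tested. Without the mouse in the model none of the 5 was called, where 0.878% of all genes were called higher and 0.395% lower, although Reg1 and Reg3g had unadjusted p-values under 0.05 in limma and 3634 of all genes did. With the mouse as a block, which compares the LDL- and PBS-treated organoids of each animal, Reg1 and Reg3g were called higher, where 5.68% of all genes were called higher and 3.46% lower. On the recovered reads without the block, DESeq2 and edgeR also called Reg1 and Reg3g, with 3.99% and 1.01% of all genes called higher. With the block on these reads, DESeq2 called the same 2 members (4.44% of all genes) and edgeR called Reg4 as well (6.34% of all genes). Reg1, Reg3g and Reg4 were higher with LDL in all 3 mice, as were 24.2% of genes tested, and Reg3a and Reg3b in 2 of 3.

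**Figure D1:**
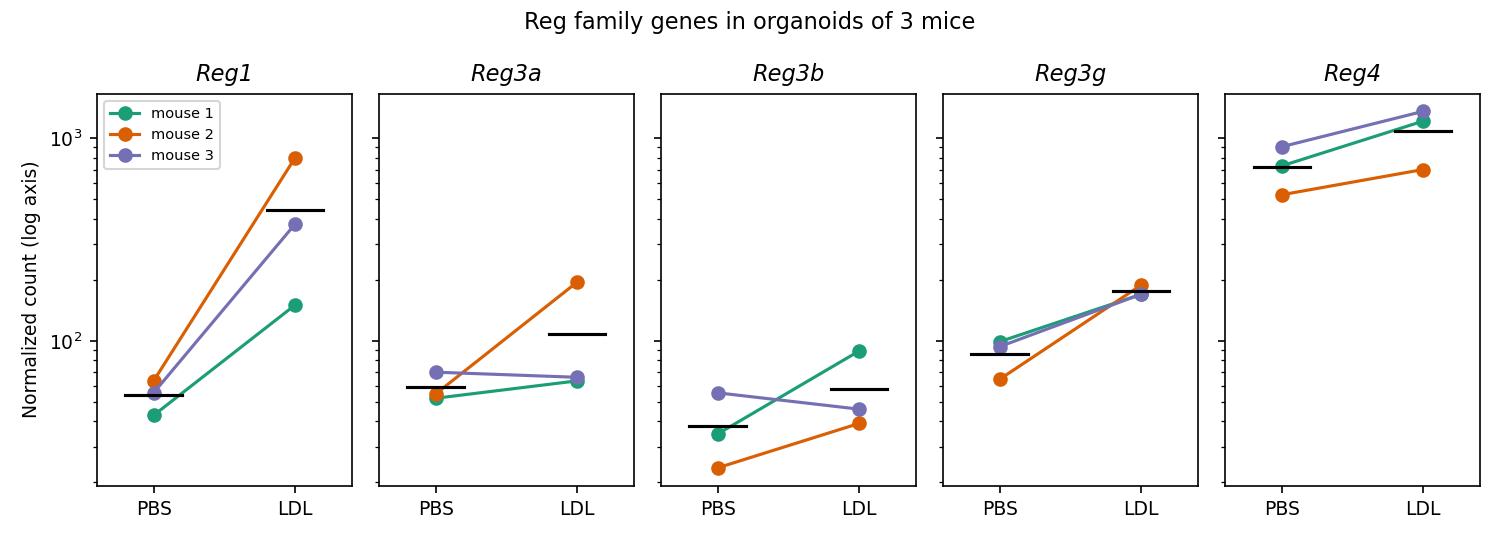
Normalized counts of the 5 Reg genes on a log axis in PBS- and LDL-treated organoids, with a line joining the libraries of each mouse and a black bar at the mean of each group (n = 3). Every line of Reg1, Reg3g and Reg4 goes up, while those of Reg3a and Reg3b go down in mouse 3.

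Reg1 had the largest response of the family. Its normalized count was 42.9, 63.4 and 55.4 with PBS and 150, 798 and 376 with LDL in mice 1, 2 and 3. Every LDL-treated library was above every PBS-treated one, as for 11.9% of genes tested, and the LDL-treated libraries differed far more among themselves than the controls did. The mean was 53.9 ± 10.3 in the controls (SD, n = 3) and 442 ± 329 under LDL (SD, n = 3). On the log2 scale the difference was 2.72 ± 0.53 (SE), or 6.59-fold with a 95% interval of 2.83 to 15.4. This was not past the threshold without the mouse in the model (adjusted p = 0.0550 from limma) and was called with the mouse block (adjusted p = 0.00148 from limma; 95% interval 4.05 to 10.7). Within mice, LDL over PBS was 3.50-fold in mouse 1, 12.6-fold in mouse 2 and 6.80-fold in mouse 3. Exact 95% intervals of these ratios for counting error only were 2.45 to 5.09, 9.50 to 17.1 and 5.26 to 8.91, so the ratio of mouse 2 was above those of mice 1 and 3 beyond counting error. With the block, Reg1 remained called when both libraries of any 1 mouse were left out. Adjusted p-values from limma were 5.92e-06, 8.33e-08 and 0.0434 without mice 1, 2 and 3. These fits called 4.11%, 8.69% and 1.44% of all genes higher. With so few mice left, such p-values rest mostly on variance estimates borrowed from all genes and say little about the spread between mice. Without the block, Reg1 passed the threshold when the LDL-treated library of mouse 1 or of mouse 2 was left out, where 0.542% and 6.39% of all genes were called higher.

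Reg3g was the member with the most even level under LDL. Its normalized count was 99.02, 64.6 and 93.6 with PBS and 170, 188 and 170 with LDL in mice 1, 2 and 3, again with no overlap between the groups. Means were 85.8 ± 18.5 for PBS (SD, n = 3) and 176 ± 10.7 for LDL (SD, n = 3). The coefficient of variation over mice was 6.11% with LDL and 21.6% with PBS, so the mouse with the lowest control level, mouse 2, had the largest ratio. LDL over PBS was 1.71-fold, 2.91-fold and 1.81-fold in mice 1, 2 and 3, with exact counting intervals of 1.31 to 2.24, 2.14 to 4.03 and 1.44 to 2.30. On the log2 scale the difference was 1.05 ± 0.20 (SE), or 2.07-fold with a 95% interval of 1.51 to 2.85 (adjusted p = 0.0538 from limma). Reg3g was called with the mouse block (adjusted p = 0.00915 from limma). That call was lost when both libraries of mouse 3 were left out (adjusted p = 0.101 from limma), at a log2 fold change of 1.15.

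Reg3a and Reg3b, the close relatives of Reg3g, were called in none of the fits made with limma, DESeq2 or edgeR. For Reg3a, which is grouped with the antimicrobial Reg3 lectins by its sequence, the normalized count was 52.1, 54.7 and 70.0 with PBS and 63.4, 195 and 66.1 with LDL. Its LDL mean of 108 ± 75.0 (SD, n = 3) was set by mouse 2, where LDL over PBS was 3.56-fold with an exact counting interval of 2.56 to 5.04. In the other mice the ratio was 1.22 (0.812 to 1.83) and 0.943 (0.686 to 1.30), both within counting error of no difference. The log2 fold change was 0.67 with a 95% interval of -0.30 to 1.64 (adjusted p = 0.431 from limma).
Reg3b, an antibacterial lectin like Reg3g, was the lowest member in reads. Its normalized count was 34.7, 23.6 and 55.4 with PBS and 89.0, 39.1 and 46.0 with LDL, from 19 to 73 reads per library, and the groups overlapped. The ratio was 2.57 (1.69 to 3.98) in mouse 1, 1.66 (0.945 to 3.01) in mouse 2 and 0.831 (0.571 to 1.203) in mouse 3, so that counting error alone covers no difference in mice 2 and 3. The log2 fold change was 0.59 with a 95% interval of -0.35 to 1.53 (adjusted p = 0.474 from limma). For both genes the interval holds no difference as well as a 2-fold rise, and these libraries do not decide between them.

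Reg4, the enteroendocrine member on chromosome 3, had a small and steady difference. Its normalized count was 730, 526 and 907 with PBS and 1214, 700 and 1356 with LDL in mice 1, 2 and 3. The groups overlapped, because mouse 2 was the lowest under both treatments, and LDL over PBS within mice was 1.66-fold, 1.33-fold and 1.495-fold. Exact counting intervals of these ratios were 1.51 to 1.83, 1.18 to 1.504 and 1.38 to 1.62, all above 1. The difference was 0.58 on the log2 scale, with a standard error of 0.28 when the mouse was not in the model (adjusted p = 0.302 from limma) and of 0.09 when it was (adjusted p = 0.00609 from limma). At 1.49-fold, Reg4 was just under the 1.5-fold threshold and was therefore not called with the block, where 8.27% of all genes were higher at an adjusted p-value under 0.05 at any fold.

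**Figure D2:**
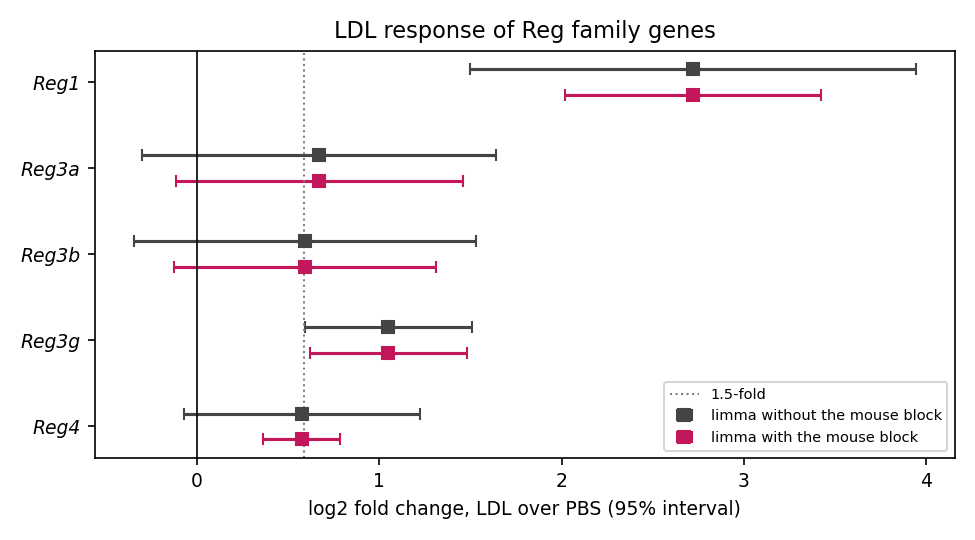
Log2 fold change of each Reg gene, LDL over PBS, with its 95% interval from limma without (grey) and with (red) the mouse as a block; the dotted line is 1.5-fold. Both intervals of Reg1 and Reg3g lie above 0, those of Reg3a and Reg3b include 0, and that of Reg4 excludes 0 with the block alone.

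Per kilobase of exon, Reg4 had the highest level under both treatments, with 610 ± 161 (SD, n = 3) normalized counts per kilobase with PBS and 922 ± 292 (SD, n = 3) with LDL. With PBS it was followed by Reg3a (52.3 ± 8.61), Reg1 (49.8 ± 9.55), Reg3g (39.8 ± 8.59) and Reg3b (26.4 ± 11.2) (SD, n = 3 each), and each of these 4 overlapped its neighbour in the order. With LDL the order on this scale became Reg4, Reg1 (408 ± 304), Reg3a (95.9 ± 66.6), Reg3g (81.7 ± 4.99) and Reg3b (40.4 ± 18.9) (SD, n = 3 each). In mouse 2, the level of Reg1 per kilobase was 738 with LDL, above the 592 of Reg4 in the same library. Neighbours in this order overlapped except Reg3g and Reg3b, whose LDL-treated libraries lay at 78.7 to 87.4 and 27.3 to 62.0 normalized counts per kilobase. The places below Reg4 depend on the length used, because the annotated exons of Reg3g cover 2153 bases and its main transcript 778. Per kilobase of the main transcript, the order of mean levels with PBS was Reg4 (702), Reg3g (110), Reg3a (71.4), Reg1 (56.8) and Reg3b (48.0), and with LDL it was Reg4 (1061), Reg1 (466), Reg3g (226), Reg3a (131) and Reg3b (73.6). Reg4 was first, Reg1 second with LDL and Reg3b last by either length.
As a share of the reads on the 5 genes, Reg1 held 4.47%, 8.66% and 4.69% with PBS and 8.90%, 41.6% and 18.7% with LDL in mice 1, 2 and 3. Wilson 95% intervals of the LDL shares were 7.51 to 10.5%, 39.5 to 43.7% and 17.2 to 20.3%, which differed from one another beyond counting error. Reg4 held 71.8% to 76.8% with PBS and 72.0%, 36.5% and 67.3% with LDL. The share of Reg3g was 7.93% to 10.3% with PBS and 8.43% to 10.1% with LDL, so its part of the family's reads overlapped between treatments while its level did not. The 5 genes together had 589 to 1451 reads in a PBS-treated library and 1382 to 2409 in an LDL-treated one, or a summed normalized count of 732 to 1181 and 1686 to 2014.

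**Figure D3:**
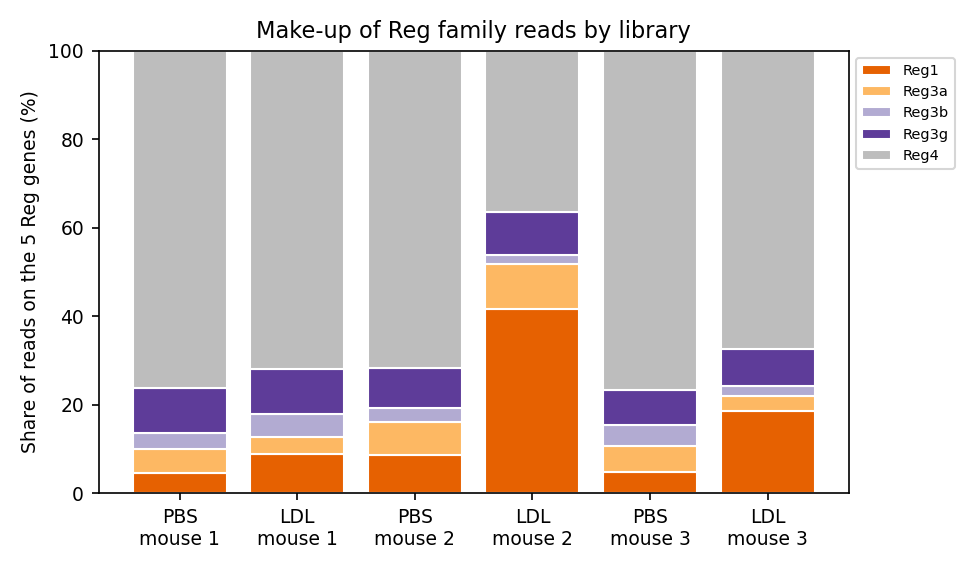
Share of the reads on the 5 Reg genes held by each gene, in percent, for every library, ordered by mouse. Reg4 holds most reads in every library except that of LDL-treated mouse 2, where Reg1 holds 41.6% and Reg4 36.5%.

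The remaining genes of the chromosome 6 row were nearly silent. Reg2, the closest relative of Reg1 with 82.6% of 495 aligned coding bases, was at 0 in both libraries of mice 1 and 3, a count that allows up to 3 reads, and at 1.82 with LDL and 2.49 with PBS in mouse 2. Reg3d had a normalized count of at most 3.66 in any library. Both were under the minimum for testing. Extl3, a proposed receptor of Reg proteins, had a normalized count of 915, 790 and 975 in the controls and of 1126, 995 and 1141 under LDL. On the log2 scale this difference was 0.29 (adjusted p = 0.214 from limma without the block and 0.0454 with it). At 1.22-fold, Extl3 was under the 1.5-fold threshold and was not called in either fit.

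Genes of pathways that act upstream of Reg3 expression in the gut, including feedback genes such as Socs3, were counted in lists. Of 14 tested genes of interleukin-22, interleukin-6 and Stat3 signaling, none was called without the mouse block and 1 was called higher with it, the nuclear cofactor gene Bcl3, with a difference of 0.98 on the log2 scale (adjusted p = 0.00907 from limma with the block and 0.189 when unblocked). The median of this list was 0.12. Il22ra1, the receptor subunit, differed by 0.50 on the log2 scale, Stat3 by 0.19 and Socs3, a feedback inhibitor and common readout of Stat3 activity, by 0.17. Their adjusted p-values from limma were 0.0779, 0.318 and 0.692 without the block and 0.0179, 0.161 and 0.477 with it. At 1.42-fold, Il22ra1 was under the 1.5-fold threshold.
Of 12 tested genes of Toll-like receptor, interleukin-1 and interleukin-17 signaling, none was called without the block and Tlr2, Tlr3 and Il18 were called higher with it, at log2 fold changes of 1.77, 0.81 and 1.23. The adaptor gene Myd88 and the receptor gene Il17ra had log2 fold changes of 0.30 and 0.08, and Tlr4, at 0.814 to 17.6, was under the minimum for testing.

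Other antimicrobial and host defense genes of the epithelium were followed beside the Reg lectins. Of 10 tested, 1 was called higher without the block and 5 were called higher and 1 lower with it, and the median log2 fold change was 1.04. The gene called in both fits was Sprr2a3, whose reads can be shared with near-identical copies, with a log2 fold change of 3.05. The others were Wfdc2 (3.29), the oxidase genes Duox2 (2.18) and Duoxa2 (2.12) and the nitric oxide synthase gene Nos2 (1.51), and Pigr, which carries antibodies across the epithelium, was lower (-0.69). Lypd8 and Dmbt1 were not called, with log2 fold changes of 0.47 and 0.28. Their adjusted p-values from limma with the block were 0.00652 and 0.168, and Lypd8, at 1.38-fold, was under the 1.5-fold threshold. Lcn2, often used as a sign of epithelial inflammation, had at most 2 reads in any library.

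**Figure D4:**
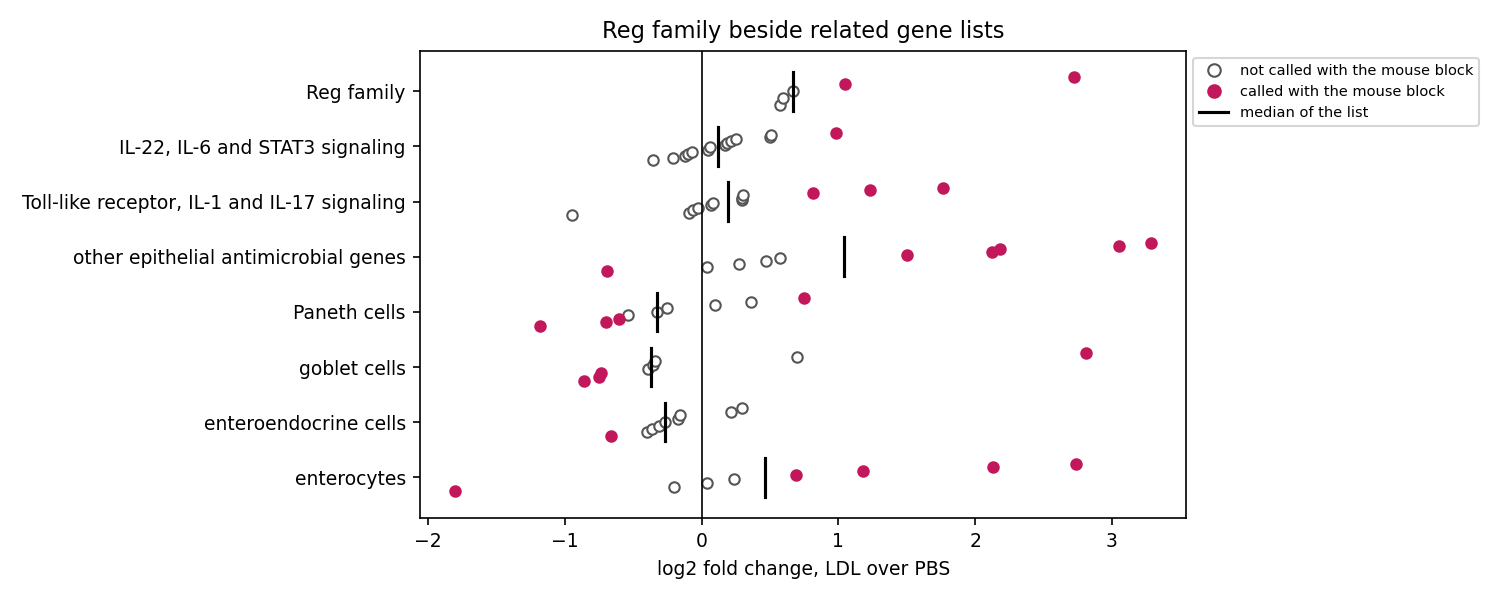
Log2 fold change, LDL over PBS, of every tested gene of the Reg family and of 7 gene lists, 1 point per gene, with a black bar at the median of each list and filled points for genes called with the mouse block. Reg1 and Reg3g are the filled points of the family, whose median is 0.67.

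The cell types that make Reg proteins were followed by their markers, and fewer cells of a type and less RNA per cell cannot be told apart in these bulk libraries. Markers of Paneth cells, which release antimicrobial proteins at the crypt base, summed to 14078 to 17214 with LDL and 18101 to 29223 with PBS, which did not overlap. None of 9 was called without the block, and with it Mmp7 was called higher and Defa24, Defa17 and Itln1 lower, while Lyz1 was at -0.33 on the log2 scale (adjusted p = 0.391 from limma). Reads of the defensin genes can be shared among their copies. Goblet cell markers summed to 27166 to 32465 with LDL and 44919 to 50215 with PBS, a difference largely through Fcgbp (14837 to 21835 and 32445 to 33546). Of 8, Clca1 was called higher and Fcgbp and Agr2 lower without the block, Tff3 was also lower with it, and Muc2 had a log2 fold change of -0.36. Enterocyte markers summed to 54786 to 122178 with LDL and 27450 to 54006 with PBS, largely through Fabp1, and of 8 markers Alpi and Fabp1 were called higher without the block, Apoa4 and Fabp2 also with it and Lct lower with it. Sis and Vil1, equally enterocyte genes, had log2 fold changes of -0.20 and 0.24.
Reg4 had a positive log2 fold change where most other enteroendocrine genes had a negative one. Of 9 such markers, none was called without the block, 7 had a negative log2 fold change, and Tac1 was called lower with the block. Chga, Chgb and Neurod1 had log2 fold changes of -0.16, -0.31 and -0.26, beside 0.58 for Reg4. Of 4 tuft cell markers none was called without the block and Pou2f3 was called lower with it, and Dclk1 and Trpm5 had log2 fold changes of -0.45 and 0.16. Of the 3 epithelial genes, Krt8 was called higher with the block. The part of these cell types in the levels of the Reg genes was not tested.

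Over the 6 libraries, which share mice and treatments, Reg1 and Reg3g had a Pearson correlation of 0.83 in log2 values, Reg1 and Reg3a of 0.79 and Reg3b and Reg4 of 0.80, whereas Reg3a and Reg3b had 0.03 and Reg3a and Reg4 -0.12. Among 11936 other genes with a mean of at least 100, those most like Reg1 were Acaa1b, a peroxisomal thiolase gene, Slc51a, an organic solute transporter gene, and Slc25a20, the mitochondrial carnitine carrier gene, with r = 0.997, 0.995 and 0.993. Acaa1b had normalized counts of 366, 1067 and 677 with LDL and 127, 175 and 143 with PBS in mice 1, 2 and 3, the same order of libraries as Reg1, and its reads can be shared with its close paralog Acaa1a. Genes most like Reg3g were Tomm34 (r = 0.998), Bag2 (r = 0.995) and Gm43189 (r = 0.994), and those most like Reg4 were Vps37b, Bicd2 and Faf2 (r = 0.994, 0.994 and 0.991). Vcp-rs, Cetn2 and Hars1 were most like Reg3a (r = 0.982, 0.982 and 0.976), and Cep83, Colgalt1 and Tsr1 most like Reg3b (r = 0.994, 0.981 and 0.976). With 6 libraries and this many genes, values near 1 arise readily, and they are given as a description.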

How the data were processed

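RNA-Seq was performed by the authors on ribosome-depleted, stranded libraries, with demultiplexing by bcl2fastq 2.20, alignment to GRCm39 by STAR, counting per gene by featureCounts and analysis by DESeq2; the annotation and strand setting were not given in the sources used here. The deposited signal values are normalized counts, reads divided by 1 size factor per library. Whole reads were recovered for 100% of values within a tolerance of 0.05 reads, and edgeR on them without the block called 186 genes higher. Depth was 22061545 to 31073360 reads on genes, and counting intervals (exact or Wilson, 95%) and the limit of 3 reads for a count of 0 cover counting error only. Gene names and positions came from GENCODE M39, which held 54749 of the identifiers, and promoters from RefSeq.

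LDL and PBS were compared with limma 3.58.1 in R 4.3.3 (eBayes with a trend, two-sided, Benjamini-Hochberg) on log2(normalized count + 1) for genes whose mean reached 10, so that a fold change is on this scale and understates changes of low genes. The mouse was no term of this fit and was a block in an alternative; the study's RNA-Seq methods do not say whether the authors' model held it, so the fit without it cannot be taken as theirs. Same-numbered libraries share an animal identifier, and after removal of treatment means they correlated across genes with r = 0.48, 0.42 and 0.46. Other alternatives were pseudocounts of 0.5 and 5, a minimum mean of 50 or none, upper-quartile and quantile normalization, libraries or mice left out, and DESeq2 1.42.0 and edgeR 4.0.16 on recovered reads. At their main settings, limma, DESeq2 and edgeR, each with and without the block, were run on simulated data. Alternatives with other settings or fewer libraries were not. Named genes were the members, Reg2, Reg3d, Extl3, the leading and called genes of 13 lists, and the 3 genes most correlated with each member. Members and lists were chosen with earlier results of these data known. A check of the genotype labels is not reported here.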

Additional observations from a re-analysis of the deposited data

How the results depend on the processing

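The log2 fold change kept its direction for all 5 genes under every alternative that gave a value (21 each, 20 for Reg3b, which a mean of at least 50 removes). Reg3a and Reg3b were called under none, with values of 0.10 to 1.05 and 0.22 to 1.02. Reg1 was called at 2.72 without a filter and with the mouse as replicate block, at 3.19, 2.26 and 2.71 with the block and without mouse 1, 2 or 3, at 3.04 and 2.77 in DESeq2 without and with the block, and at 3.05 and 2.85 in edgeR. Reg3g was called at 1.05 without a filter and with the block, at 1.19 and 0.81 with the block and without mouse 1 or 2, at 1.03 and 1.05 in DESeq2 and at 1.05 and 1.06 in edgeR. Reg4 was called at 0.66 with the block and without mouse 2 and at 0.60 in edgeR with the block. Calls with the block and without a mouse rest mostly on variance estimates borrowed from all genes. Leaving out single libraries gave 2.14 to 3.34 for Reg1, 0.86 to 1.16 for Reg3g and 0.37 to 0.87 for Reg4. Without the LDL-treated library of mouse 2 these 3 genes were called (adjusted p = 0.00680, 0.0213 and 0.0236 from limma), and so was Reg1 when LDL-treated mouse 1 was left out (adjusted p = 0.00821 from limma). Over all alternatives the adjusted p-values reached 0.715 for Reg1, 0.645 for Reg3g and 0.753 for Reg4, each without the block and without mouse 3, where 0 genes were called in either direction.

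The count of members called higher was 0 in limma without the block, the main fit here. It was 2 without a filter, with the block, in DESeq2 with and without the block and in edgeR without it. In edgeR with the block it was 3. With the block and without mouse 1, 2 or 3 it was 2, 3 and 1, and it was 0 to 3 when single libraries were left out. Over all genes, the main fit called 162 higher and 73 lower. These counts were 506 and 245 without a filter, 1048 and 639 with the block, 758 and 327, 1604 and 1348, and 265 higher with the block and without mouse 1, 2 or 3, 817 and 354 in DESeq2, 911 and 517 in DESeq2 with the block, and 1171 and 588 in edgeR with the block. Single libraries left out gave 18 to 1179 higher and 2 to 1133 lower. The cause of these differences was not tested. Upper-quartile and quantile normalization moved no call of the 5 members, and gave 162 and 168 genes higher and 83 and 89 lower. The median of all tested genes was -0.04 under both. Levels per kilobase of the main transcript were added after the data were seen.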
